A study of Mus musculus with 10 samples.

Results

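The 34 genes described here were higher in every library labelled as a conditional knockout of Esrrg than in any control library of the mouse cochlea on postnatal day 1. They were chosen by their measured values, so their levels and ratios are a description and carry no test. Levels are in CPM, each gene's read count per 1000000 reads counted in its library. A gene was kept when its mean over the 5 libraries labelled cKO was at least 1 CPM, its lowest cKO value lay above its highest control value, and its cKO mean was at least 25% above its control mean. Of 54532 genes in the table, 15206 reached 1 CPM, and 41 met all conditions. This is 0.27% of the genes at 1 CPM or more. Esrrg, Eif3l, Polr2f, Tmem132d, Cdh13, Dio3 and Hrk were set aside by the choice of genes, which left the 34. By the mirrored rule, 246 of 15315 genes (1.61%) were lower without overlap. Since the rule used the contrast between the groups, nothing is read from these shares.

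Both groups were female mice homozygous for a floxed Esrrg allele (Esrrgfl/fl), and 5 carried no Cre (control) and 5 carried Sox10-Cre in addition (cKO). Each library came from 1 animal, from the soft tissue of its left and right cochlea together, and was made from polyadenylated RNA with paired reads of 150 bp. Sox10-Cre is active in cells that use the Sox10 regulatory sequence, which in the ear include the otic epithelium, glia and melanocytes. The floxed allele should remain whole only in cells that neither use this sequence nor descend from cells that did. A group with Sox10-Cre and no floxed allele is not analysed here, and the transgene and the loss of Esrrg therefore cannot be told apart.

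Esrrg encodes estrogen-related receptor gamma, an orphan nuclear receptor that binds DNA at sites extended from the AGGTCA half-site. Cochlear tissue holds sensory epithelium, spiral ganglion neurons, glia, the stria vascularis, mesenchyme, vessels and resident immune cells. Neuropeptides are made as long precursors, cut by prohormone convertases and released from dense-core granules by particular neurons and endocrine cells, which makes them useful marks of cell identity. In RNA from whole tissue, fewer cells of a type and less RNA per cell cannot be told apart.

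The libraries held from 33487089 to 41779836 counted reads. The tissue label was checked against 30 lists of cell type, state and pathway genes. The spiral ganglion list summed to between 2104 and 2136 CPM in controls and between 1412 and 2257 CPM in cKO libraries, and the hair cell list to 555 to 666 and 439 to 560 CPM. Esrrg itself, the targeted gene, stood at 57.5, 47.1, 60.8, 64.7 and 63.3 CPM in controls 1 to 5 and at 108, 93.2, 78.7, 70.4 and 95.4 CPM in cKO libraries 1 to 5. Its level over the whole gene was higher, not lower, in these libraries, which are therefore called the libraries labelled cKO. The labels do not say which exons are floxed, and a count over the whole gene does not show whether they were removed.

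The promoters of 3 members that belong to the peptide pathway are shown first, because they rank high in ratio and a convertase such as that of Pcsk1 cuts peptide precursors such as those of Tac1 and Vip. Each sequence is the 250 bases before the annotated start, on the gene's own strand, from RefSeq (GRCm38.p6). The Pcsk1 window is chr13:75089607-75089856, the Tac1 window is chr6:7554811-7555060 and the Vip window is chr10:5638968-5639217, all on the plus strand. The gene positions given below come from another annotation, GENCODE, in which Pcsk1 and Tac1 start inside these windows. Capitals mark a match of the cAMP response element TGACGTCA.
Pcsk1: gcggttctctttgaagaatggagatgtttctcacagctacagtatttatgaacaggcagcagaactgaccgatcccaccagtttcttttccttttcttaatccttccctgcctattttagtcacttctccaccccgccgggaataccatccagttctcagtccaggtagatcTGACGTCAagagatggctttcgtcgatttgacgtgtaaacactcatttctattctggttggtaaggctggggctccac
Tac1: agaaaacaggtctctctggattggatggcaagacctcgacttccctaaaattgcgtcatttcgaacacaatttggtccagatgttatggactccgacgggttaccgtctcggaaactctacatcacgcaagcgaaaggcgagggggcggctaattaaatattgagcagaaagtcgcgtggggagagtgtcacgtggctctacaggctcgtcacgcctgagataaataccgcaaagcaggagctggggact
Vip: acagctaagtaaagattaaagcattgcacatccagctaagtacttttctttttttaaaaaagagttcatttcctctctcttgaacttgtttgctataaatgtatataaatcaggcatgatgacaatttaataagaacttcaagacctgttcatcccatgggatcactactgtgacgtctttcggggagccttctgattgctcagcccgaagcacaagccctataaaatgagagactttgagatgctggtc

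The Pcsk1 match lies at -78 to -71 from the start, and the Tac1 and Vip windows hold none. RefSeq promoter windows, which also take in 50 bases after each start, matched 28 of the 34 members and gave 35 windows. TGACGTCA, which reads the same on both strands, was in 1 of the 35 windows (2.86%), against 2.92% of the 14611 windows of genes at 1 CPM or more and 1.79% of all 32851 windows. The estrogen-related receptor element TNAAGGTCA, searched on both strands, was in 0 of the 35 windows, against 0.760% and 1.28% of the same backgrounds. The 2 motifs share no stretch that could count 1 match under both. A match is a run of letters and not a shown binding site, and its absence says only that these letters are not in these windows. The member windows had a median GC content of 50.8%, and those of genes at 1 CPM or more had 59.6%.

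The members were mostly low in level and moderate in ratio. Their ratio of means ran from 1.26 to 20.9 with a median of 1.40. It was 2 or more for 7 genes, between 1.5 and 2 for 6 and under 1.5 for 21. The ratio of the lowest cKO value to the highest control value had a median of 1.07 and was less than 5% above 1 for 13 genes. The median member stood at 7.06 CPM in cKO libraries, against 27.6 CPM for all genes at 1 CPM or more. Per length, the medians were 1.47 and 6.04 FPKM (a level scaled to gene length and depth), so the members were also low on that scale. Of the 34 genes 31 code for protein, and all 34 together took 0.0644% of the counts in controls and 0.0913% in cKO libraries.

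**Figure D1:**
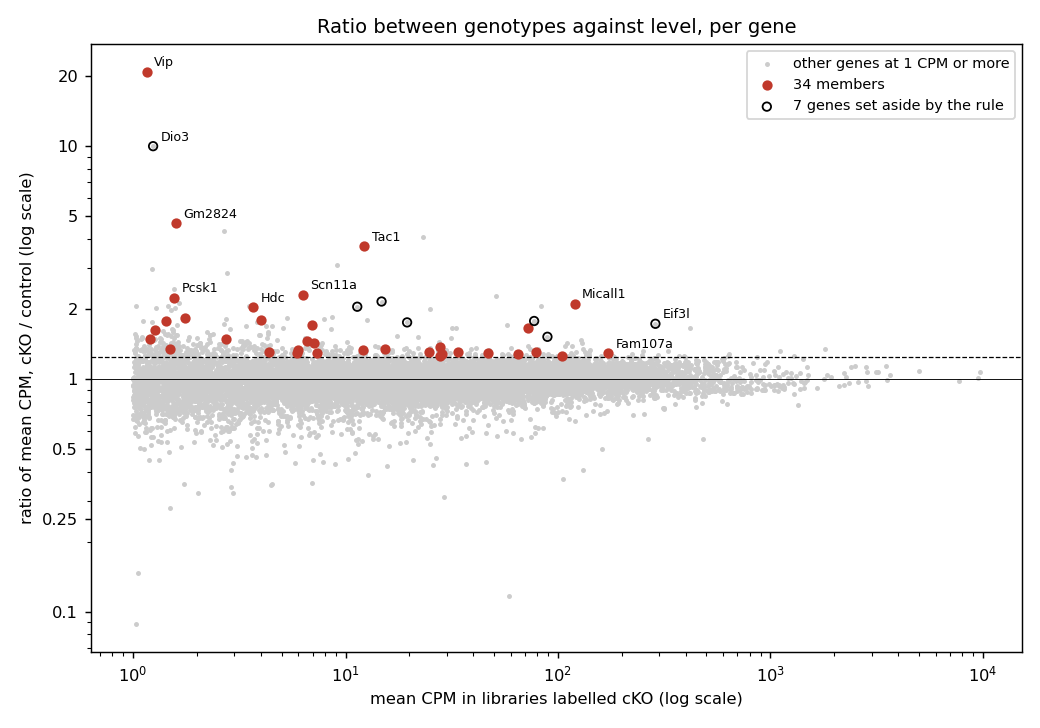
Each point is a gene with a mean of at least 1 CPM in the libraries labelled cKO, with that mean on the horizontal axis (CPM, log scale) and the ratio of cKO to control means on the vertical axis (log scale). Red points are the 34 members, open circles are the 7 genes set aside, and the dashed line marks a mean 25% higher; Vip lies highest at 20.9, and Micall1 and Fam107a lie at the right among the members.

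Genes of neuropeptides and their processing gave 3 members, Vip, Tac1 and Pcsk1, and they are described with Scn11a, a channel gene of pain-sensing neurons. The ratios of these 4 ran from 2.23 to 20.9. Vip (ENSMUSG00000019772, chr10:5639218-5647617, plus strand, mm10) encodes vasoactive intestinal peptide, a transmitter of autonomic and some central neurons. It stood at 0.0239, 0.0546, 0.0869, 0.111 and 0 CPM in controls 1 to 5 and at 1.55, 0.888, 1.23, 0.229 and 1.89 CPM in cKO libraries 1 to 5. In reads this was 10 over the 5 controls and 211 over the 5 cKO libraries. The zero in control 5 allows up to 0.0787 CPM (3 counts). The controls lay near the limit of detection, and cKO 4, with 9 reads, was far below the other cKO libraries but still above every control. The ratio of means was 20.9, and the ratio of the summed values was 21.3 with an exact 95% interval of 11.4 to 45.1 that covers counting error only. Without any single library the ratio ran from 16.8 to 28.0, and without cKO 5 its cKO mean was under 1 CPM, so that Vip would leave the set.

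Tac1 (ENSMUSG00000061762, chr6:7554879-7565834, plus strand) encodes the precursor of substance P and neurokinin A, transmitters of pain-sensing and enteric neurons. Its level was 2.58, 2.84, 1.83, 1.52 and 7.66 CPM in controls 1 to 5 and 13.6, 14.9, 8.55, 11.6 and 12.6 CPM in cKO libraries 1 to 5. Control 5 stood well above the other controls and just below cKO 3, the lowest of its group. The means were 3.29 ± 2.5 and 12.3 ± 2.4 CPM (SD, n = 5 each), a ratio of 3.73, which was 5.59 without control 5. Its receptor gene Tacr1 averaged 0.754 and 1.5 CPM, a ratio of 1.99, with ranges that overlapped. The genes of the VIP receptors were 1.15 and 1.10 CPM for Vipr1 and 2.96 and 3.40 CPM for Vipr2 in controls and cKO libraries, again with overlap.

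Scn11a (ENSMUSG00000034115, chr9:119753759-119825456, minus strand) encodes the sodium channel Nav1.9, found mainly in small sensory neurons. It was at 2.61, 1.69, 2.52, 1.80 and 5.06 CPM in controls 1 to 5 and at 6.48, 6.27, 6.38, 6.00 and 6.45 CPM in cKO libraries 1 to 5. The cKO values were almost level, and control 5 was again the highest control. The ratio was 2.31 with all libraries and 2.93 without control 5. The sodium channel gene Scn9a (ratio 0.900) overlapped between the groups.

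Pcsk1 (ENSMUSG00000021587, chr13:75089826-75134861, plus strand) encodes prohormone convertase 1, which cuts peptide precursors. It was at 0.766, 0.601, 0.464, 0.914 and 0.761 CPM in controls 1 to 5 and at 1.67, 1.19, 1.90, 1.47 and 1.59 CPM in cKO libraries 1 to 5. The groups were separated by a wider step than for most members, with the lowest cKO value 1.31 times the highest control value. The related convertase gene Pcsk2 averaged 46.2 and 47.5 CPM, and Pcsk5 and Furin had ratios of 1.14 each, all with overlap. Among 9 genes of precursor processing and granules, Chga averaged 33.9 CPM in controls and 18 CPM in cKO libraries and Chgb 33.3 and 19.6 CPM, both lower without overlap. Among 13 other neuropeptide genes, Npy was lower without overlap, at 11.6 and 8.88 CPM, and Penk averaged 83.8 and 117 CPM with overlap.

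Genes of the neurons that commonly carry these peptides gave a separate reading, from lists written after the members were known. The pain-sensing neuron list of 13 genes summed to 120 to 171 CPM in controls and 98.3 to 130 CPM in cKO libraries. In this list 0 genes were higher without overlap, against 118 of all 15206 genes at 1 CPM or more. In control 5, Scn10a was 9.31 CPM and Prdm12 4.38 CPM, while the other controls had at most 0.194 and 0.479 CPM and the cKO libraries at most 0.209 and 0.686 CPM. Control 5 was also the control in which Tac1 and Scn11a were highest, and the part of this library in their values is shown by the ratios without it. The autonomic neuron list of 10 genes summed to 3.04 to 4.88 CPM in controls and 2.44 to 3.33 CPM in cKO libraries. Chat and Slc18a3 on this list, which mark only its cholinergic part, had 0 reads in all 10 libraries, which allows up to 0.0718 to 0.0896 CPM per library.

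**Figure D2:**
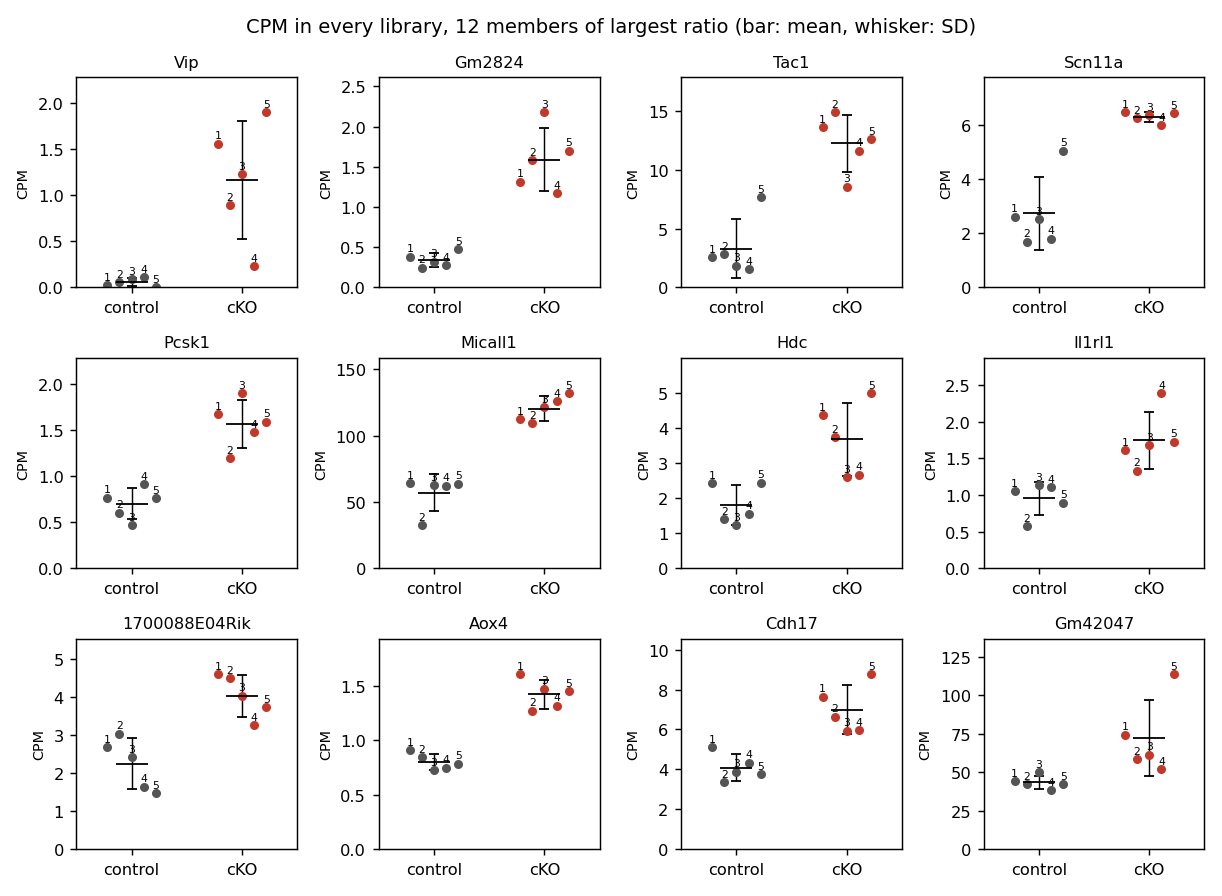
CPM (vertical axes, linear from 0) of the 12 members of largest ratio in each library, with grey points for controls and red points for libraries labelled cKO, numbered by library; the bar is the mean and the whisker the SD. No control point reaches the lowest cKO point; control 5 comes nearest for Tac1, at 7.66 against 8.55 CPM, and for Scn11a, at 5.06 against 6.00 CPM.

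A second group of members lay beside Sox10, whose regulatory sequence drives the Cre. Micall1 (ENSMUSG00000033039, chr15:79108898-79136900, plus strand) encodes a membrane protein of recycling endosomes that recruits EHD1 and Rab8. It was at 64.2, 32.4, 62.7, 62.3 and 63.8 CPM in controls 1 to 5 and at 112, 109, 122, 126 and 132 CPM in cKO libraries 1 to 5. Except for the low control 2, each group was tight, and the lowest cKO value was 1.70 times the highest control value. The ratio was 2.11, or 1.90 without control 2. Its related or partner genes Micall2 (ratio 0.888), Ehd1 (0.988) and Rab8a (0.975) overlapped between the groups.

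1700088E04Rik (ENSMUSG00000033029, chr15:79129349-79141253, minus strand) runs antisense to the end of Micall1. It was at 2.68, 3.03, 2.41, 1.63 and 1.47 CPM in controls 1 to 5 and at 4.60, 4.49, 4.03, 3.25 and 3.73 CPM in cKO libraries 1 to 5. The groups were close, cKO 4 lying just above control 2. Its exons overlap those of Micall1 by 2229 bases and those of Polr2f by 245 bases. The strand setting of the counting is not given in the sources used here, so reads of these genes cannot be told apart where they overlap.

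Along chromosome 15 the genes ran in the order Ankrd54, Eif3l, Micall1, 1700088E04Rik, Polr2f, Sox10, Gm10863 and Pick1. Micall1 ends 0.018 Mb and 1700088E04Rik 0.0137 Mb from Sox10. The ratios were 1.03 for Ankrd54, then 1.73, 2.11, 1.79 and 1.78 for the 4 genes from Eif3l to Polr2f, then 1.09 for Sox10 and 1.11 for Gm10863. Polr2f and Sox10 are 3.13 kb apart. Within 1 Mb of Sox10, 59 genes reached 1 CPM, and those 4 met the rule. The other 55 had a median ratio of 0.966 (0.430 to 1.44), and 0 of them were higher without overlap. That 0 says little, since only 118 of all 15206 genes at 1 CPM or more were higher without overlap. Among genes at 1 CPM or more, the higher values formed 1 unbroken run of neighbours between Ankrd54 and Sox10. Every library labelled cKO carries Sox10-Cre and no control does, so the transgene and the loss of Esrrg cannot be told apart here. The source of the run was not tested.

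**Figure D3:**
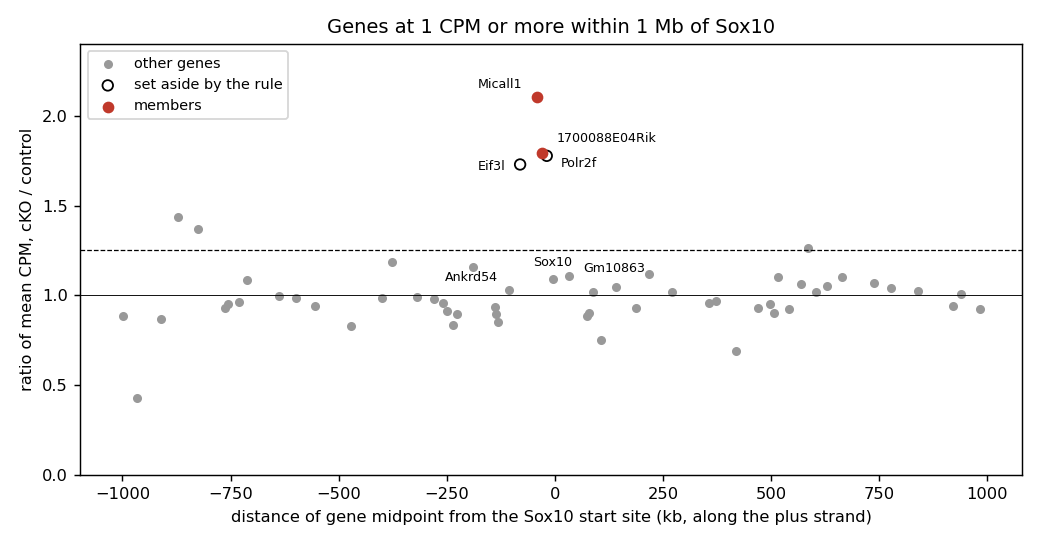
Ratio of cKO to control mean CPM (vertical axis) for the genes at 1 CPM or more within 1 Mb of Sox10, by distance of the gene's midpoint from the Sox10 start (horizontal axis, kb). Red points are members, open circles are genes set aside, grey points are the others, and the dashed line marks a mean 25% higher; Micall1, 1700088E04Rik, Eif3l and Polr2f stand between 1.73 and 2.11 while Sox10 is at 1.09.

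The other members were scattered over the genome. Chromosomes 15 and 7 held 4 each (11.8% of members), against 3.99% and 7.61% of genes at 1 CPM or more, and chromosomes 3, 16, 18 and X held 0. The other 2 on chromosome 15, Gm2824 and 4930556M19Rik, lie 54.1 and 68.4 Mb from Sox10. Of the 34 members 29 had a neighbour at 1 CPM or more within 100 kb. Leaving out members and genes set aside, the 88 neighbours had a median ratio of 0.994 (0.730 to 1.35), and 43 of them were above 1. Only Ppp1r3d beside Cdh26 (1.30), 1700073E17Rik at Lmntd1 (1.35) and Slc24a4 beside Rin3 (1.35) were at least 25% higher, all with overlapping groups.

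Genes of histamine synthesis, the interleukin-33 receptor and an NF-kappaB inhibitor gave 3 members. Hdc (chr2:126593667-126619299, minus strand) encodes histidine decarboxylase, which makes histamine in mast cells, basophils and some neurons. It was at 2.42, 1.39, 1.22, 1.55 and 2.44 CPM in controls 1 to 5 and at 4.36, 3.75, 2.60, 2.67 and 4.99 CPM in cKO libraries 1 to 5. Libraries cKO 3 and cKO 4 lay only slightly above controls 1 and 5. Il1rl1 (chr1:40429570-40465415, plus strand) encodes ST2, the receptor of interleukin-33, carried by mast cells and some lymphocytes. It was at 1.05, 0.574, 1.13, 1.11 and 0.892 CPM in controls 1 to 5 and at 1.61, 1.33, 1.68, 2.39 and 1.73 CPM in cKO libraries 1 to 5. Library cKO 2 came nearest to the controls. The ratios were 2.04 for Hdc and 1.84 for Il1rl1.

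Mast cell markers were measured beside them. Cpa3, a mast cell protease gene, was at 4.5, 5.98, 7.36, 4.51 and 5.90 CPM in controls 1 to 5 and at 8.00, 7.77, 5.90, 9.28 and 6.20 CPM in cKO libraries 1 to 5. The groups overlapped, and the ratio of means was 1.31. The other mast cell proteases also overlapped, with means of 6.79 and 8.09 CPM for Tpsb2, 6.54 and 7.53 CPM for Cma1 and 2.24 and 2.20 CPM for Mcpt4. The whole list of 11 mast cell and granulocyte genes summed to 23.1 to 34.3 CPM in controls and 26.0 to 36.2 CPM in cKO libraries, and none of them was at 0 in all libraries. Of the 8 tested, 4 had a log2 fold change above 0 and 0 were called higher. Of 7 further mast cell genes tested, all 7 had a log2 fold change above 0 and 0 were without overlap. Over all genes, edgeR called 13 of 17937 higher, and 118 of 15206 at 1 CPM or more were higher without overlap. The part of mast cell number in the Hdc and Il1rl1 values was not tested. The ligand gene Il33 averaged 30.1 and 31.5 CPM, with overlap.

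Nfkbie (chr17:45555703-45563169, plus strand) encodes an inhibitor that holds NF-kappaB in the cytoplasm. It was at 9.38, 9.26, 8.29, 9.83 and 8.66 CPM in controls 1 to 5 and at 12.2, 11.4, 12.8, 12.4 and 11.5 CPM in cKO libraries 1 to 5. Both groups were tight, and the lowest cKO value was 1.16 times the highest control value at a ratio of 1.33. The inhibitor gene Nfkbia had a ratio of 1.20, and the subunit genes Nfkb1 and Rela had 1.08 and 1.04, all with overlap.

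Of the noncoding members, Gm2824, annotated as a long intergenic RNA (ENSMUSG00000097452, chr15:24981620-25027358, minus strand), had the widest step between groups. It was at 0.383, 0.246, 0.319, 0.277 and 0.472 CPM in controls 1 to 5 and at 1.31, 1.58, 2.18, 1.17 and 1.70 CPM in cKO libraries 1 to 5. The lowest cKO value was 2.48 times the highest control value, and the ratio of means was 4.68. No gene at 1 CPM or more lay within 100 kb of it. Gm42047 (chr8:121833247-121841178, plus strand) was at 44.2, 42.4, 50, 38.2 and 42.2 CPM in controls 1 to 5 and at 74.4, 58.6, 61.3, 52.0 and 114 CPM in cKO libraries 1 to 5. Libraries cKO 5 and cKO 1 were the highest, and without them the ratio fell from 1.66 to 1.32. The third, 4930556M19Rik, averaged 5.63 and 7.31 CPM, with the lowest cKO value at 1.00 times the highest control value.

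Adhesion, matrix and surface genes formed a group of 6 with ratios from 1.31 to 1.71. Cdh17 (chr4:11758147-11817895, plus strand) encodes LI-cadherin, an adhesion protein best known from liver and intestine. It was at 5.10, 3.33, 3.88, 4.32 and 3.75 CPM in controls 1 to 5 and at 7.64, 6.63, 5.93, 5.95 and 8.78 CPM in cKO libraries 1 to 5. Controls 1 and 4 came nearest to cKO 3 and cKO 4. Cdh26, another cadherin gene, averaged 4.99 and 7.13 CPM (ratio 1.43), while the classical cadherin genes Cdh1 and Cdh2 had ratios of 1.21 and 1.00 with overlap. Thbs4 (1.48), encoding the matrix protein thrombospondin 4, and Gpc5 (1.34), encoding a surface proteoglycan, were at 2.74 and 5.96 CPM in cKO libraries. Their relatives lay on both sides of 1 and overlapped between the groups, with ratios from 0.593 (Comp) through 0.976 (Thbs3) to 1.19 (Thbs2) for Thbs4 and from 0.939 (Gpc2) to 1.23 (Gpc4) for Gpc5. Galnt14 (1.46) starts O-linked glycans, and Tmeff2 (1.31) encodes a transmembrane protein with an EGF-like domain.

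Membrane channels, receptors, surface enzymes and signalling adaptors gave 7 members, with ratios from 1.26 to 1.31. Ppp1r1b (chr11:98348404-98357796, plus strand) encodes DARPP-32, a phosphatase inhibitor controlled by dopamine signals. It was at 53.9, 56.9, 50.5, 57.4 and 34.2 CPM in controls 1 to 5 and at 64.2, 61.8, 66.4, 62.7 and 70.0 CPM in cKO libraries 1 to 5. Control 5 was the low value, and without it the ratio was 1.19 instead of 1.29. Ano1, a calcium-activated chloride channel gene, averaged 36.2 and 46.8 CPM, and Entpd1, encoding the ATP-cleaving enzyme CD39, 25.8 and 33.8 CPM. The relatives of Ano1 had ratios from 0.799 (Ano4) to 1.09 (Ano2), and Entpd2 and Entpd3 had 0.888 and 1.00. The groups overlapped for each of these relatives.

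Grid1, encoding a delta glutamate receptor bound by cerebellins, averaged 22.4 and 28.6 CPM. The cerebellin gene Cbln1 was lower without overlap, at 3.62 and 1.94 CPM. Myof, encoding the membrane-repair protein myoferlin, was at 83.5 and 105 CPM, and its ratio of 1.26 became 1.16 without control 2. Rin3 (1.26), encoding a Rab5 exchange factor, and Mctp2 (1.31), encoding a membrane protein with C2 domains, completed the group. Over all 69 relatives or partners listed, 63 reached 1 CPM. The median ratio of the relatives was 1.01 (0.536 to 1.28), and 0 were higher without overlap. Over all 15206 genes at 1 CPM or more, 118 were higher without overlap, so a 0 among so few genes says little.

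The members highest per length included Fam107a, Tmem252, Ppp1r1b, Micall1 and Gm42047. Fam107a (chr14:8296274-8318023, minus strand), which encodes an actin-associated stress-responsive protein, averaged 33.9 FPKM in controls and 44.5 FPKM in cKO libraries. It was at 146, 120, 133, 127 and 139 CPM in controls 1 to 5 and at 203, 152, 161, 156 and 190 CPM in cKO libraries 1 to 5. Libraries cKO 1 and cKO 5 were highest, and without them the ratio fell from 1.30 to 1.18. Tmem252 (chr19:24674008-24682233, plus strand), a transmembrane protein gene, was at 62.2, 52.4, 63.2, 72.0 and 52.2 CPM in controls 1 to 5 and at 78.9, 78.8, 72.2, 75.4 and 89.0 CPM in cKO libraries 1 to 5. Its highest control and lowest cKO values were almost equal.

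The glucocorticoid-responsive genes Fkbp5 and Zbtb16 set the same pair of cKO libraries apart. Fkbp5 was 204 CPM in cKO 1 and 85.1 CPM in cKO 5, while the other cKO libraries had 36.3 to 52.3 CPM and the controls 36.3 to 46.5 CPM. Zbtb16 was 65.1 and 27.8 CPM in cKO 1 and cKO 5, and 6.20 to 9.13 CPM in the other cKO libraries. Sgk1 set only cKO 1 apart, at 238 CPM, while its 118 CPM in cKO 5 lay near the 113 CPM of cKO 3. The list of 13 glucocorticoid genes summed to 497 to 577 CPM in controls and 457 to 1322 CPM in cKO libraries, and its genes had a median log2 difference of 0.49, with 0 called. The circadian clock list was also highest in cKO 1 and cKO 5, at 841 and 764 CPM. It summed to 598 to 695 CPM in the other cKO libraries and 506 to 702 CPM in controls. The part of either list in the member values was not tested beyond the ratios without cKO 1 and cKO 5. Over all members, cKO 5 was the highest cKO library for 16 of 34 and cKO 1 for 8, against 24.2% and 19.9% of all genes at 1 CPM or more.

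**Figure D4:**
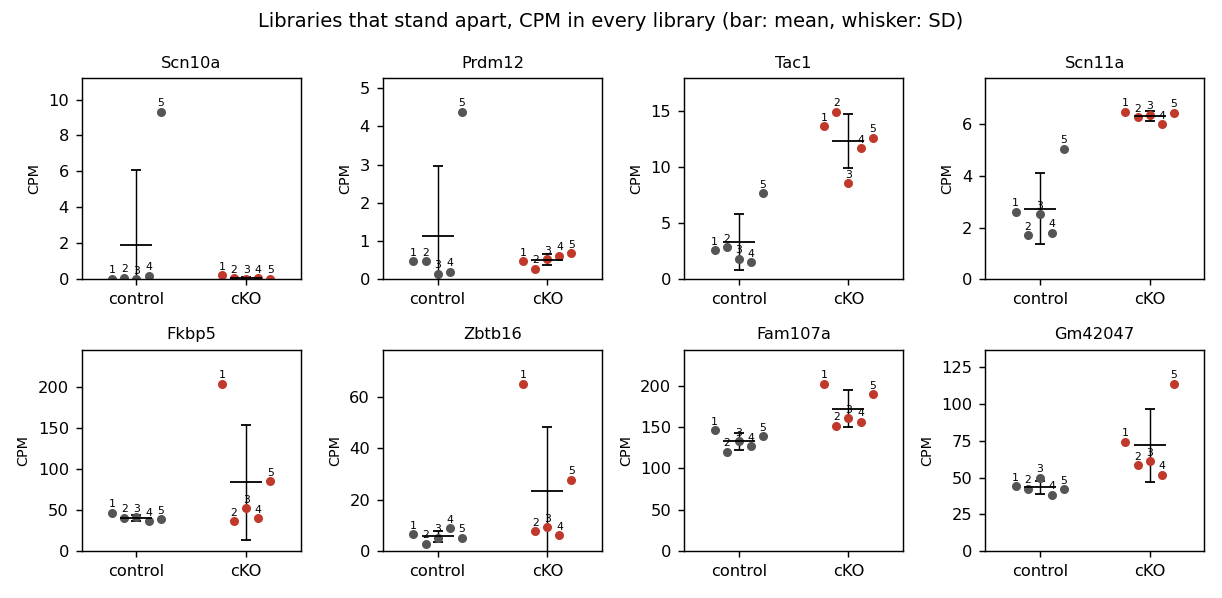
CPM (vertical axes, linear from 0) in each library for 4 genes that set libraries apart (Scn10a, Prdm12, Fkbp5 and Zbtb16) and 4 members (Tac1, Scn11a, Fam107a and Gm42047); bar, mean; whisker, SD. Control 5 stands alone for Scn10a at 9.31 CPM and Prdm12 at 4.38 CPM and is the highest control for Tac1 and Scn11a, and cKO 1 and cKO 5 are the highest for Fkbp5, Zbtb16, Fam107a and Gm42047.

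Among the remaining members, Aox4 (chr1:58210397-58268597, plus strand) encodes an aldehyde oxidase. It was at 0.910, 0.847, 0.725, 0.748 and 0.787 CPM in controls 1 to 5 and at 1.61, 1.28, 1.48, 1.32 and 1.45 CPM in cKO libraries 1 to 5. The lowest cKO value was 1.40 times the highest control value, and both groups were tight. The neighbouring oxidase genes Aox3 and Aox2 had ratios of 0.832 and 1.01. Otx1, a homeobox gene needed for inner ear patterning, averaged 4.58 and 5.91 CPM (1.29), and its relative Otx2 had a ratio of 0.982 with overlap. Rbm47, encoding an RNA-binding splicing regulator of epithelia, averaged 11.3 and 15.3 CPM (1.35), and the epithelial splicing regulators Esrp1 and Esrp2 had 1.15 and 1.17 with overlap. Lmntd1 (chr6:145365134-145614319, minus strand), whose product has a lamin tail domain, was at 21, 16.2, 20.9, 22.5 and 21 CPM in controls 1 to 5 and at 28.9, 26.4, 25.2, 26.6 and 32.6 CPM in cKO libraries 1 to 5. Control 2 was low, and the lowest cKO value was 1.12 times the highest control value at a ratio of 1.37. Tex21 (1.63), Tmem190 (1.48) and Mybpc2 (1.34) averaged 1.27, 1.20 and 1.49 CPM in cKO libraries; Mybpc2 encodes a myosin-binding protein of fast muscle.

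None of the 34 members was on the fixed lists, so the lists give no cell source for single members. Of the 30 list sums, that of surface epithelium and keratinocytes was higher without overlap, at 642 to 776 CPM in controls and 782 to 887 CPM in cKO libraries, and 0 were lower without overlap. Cdh1 took the largest part of it, at 372 and 449 CPM on average with overlapping groups, while the keratin genes Krt5, Krt1 and Krt10 had ratios from 0.721 to 0.862 and Krt8, Krt18 and Epcam 1.05 to 1.06. Of its 9 tested genes, none was called, 0 were higher without overlap and 1 was lower without overlap. None of its 11 genes was at 0 in all libraries. Its part in the values of epithelial members such as Cdh26 and Rbm47 was not tested. Across the 463 list genes in the table, 435 were tested, and 0 were called higher by edgeR's quasi-likelihood test with Benjamini-Hochberg adjustment. By the same test, 38 had a higher level at an unadjusted p under 0.05. The share of all tested genes at that limit was not computed, so nothing is read from the 38. DESeq2 called 2 higher and limma-voom 0. The 14 list genes edgeR called lower included Pvalb and Calb2 of the hair cell list, Fgf10, the spiral ganglion genes Elavl4, Slc17a7 and Runx1, Spp1, Tfrc, the brain genes Olig1, Olig2, Aqp4 and Cbln1, and Igfbpl1, with ratios from 0.147 to 0.698. Of the 405 list genes at 1 CPM or more, 3 were higher without overlap: Igf1 (1.19), Tgfbr2 (1.14) and Gjb2 (1.15). All were less than 25% higher in mean. Over all 15206 genes at 1 CPM or more, 118 were higher without overlap at any ratio, so nothing is read from the 3. Over all 17937 genes tested, edgeR called 13 higher (0.0725%) and 98 lower (0.546%). Of the 33 members tested 6 were called higher, Gm2824, Tac1, Scn11a, Pcsk1, Micall1 and Cdh17. In this fit Vip was not tested because it failed the filter on low counts. Since the members were chosen on the same contrast, this count supports nothing about them.

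**Figure D5:**
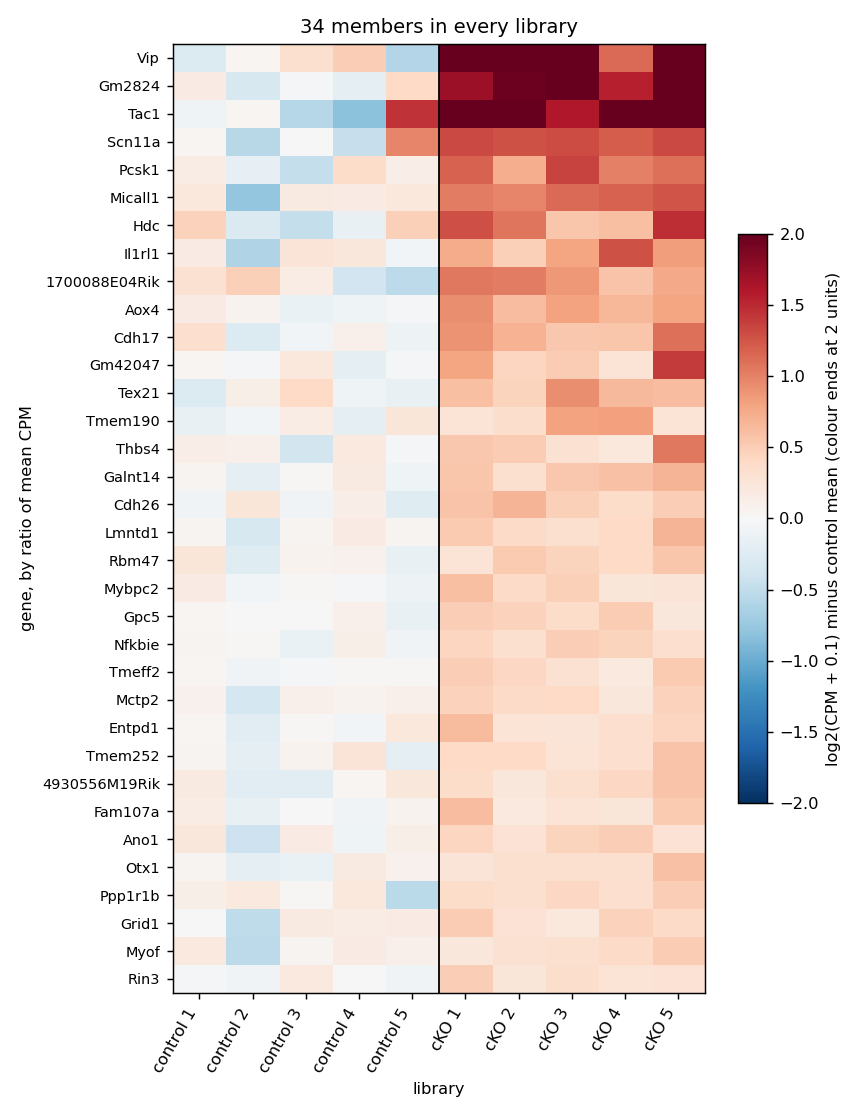
Colour shows log2(CPM + 0.1) of each member in each library minus the control mean, with genes in rows by ratio and libraries in columns; the scale ends at 2 units in either direction. The cKO columns are red throughout, and control 5 is red for Tac1 and Scn11a and blue for Ppp1r1b, while control 2 is blue for Micall1 and Myof.

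The rule sets the edges between the groups, so the libraries at these edges are given as a description. Control 2 was the lowest control for 18 of 34 members, against 39.6% of all genes at 1 CPM or more. The highest control was control 4 for 10 members, control 1 for 9, control 5 for 8, control 3 for 5 and control 2 for 2, against 12.5%, 21.6%, 23.1%, 9.06% and 33.7% of all genes. The lowest cKO library was cKO 2 for 12 members, cKO 4 for 10, cKO 3 for 7, cKO 1 for 4 and cKO 5 for 1, against 30.3%, 17.8%, 16.5%, 16.9% and 18.4% of all genes. The spread within groups was near that of other genes, with a median coefficient of variation of 14.9% in controls and 9.49% in cKO libraries, against 14.1% and 10.4% over all genes at 1 CPM or more. The median span of the members was 46.9 kb against 23.8 kb, with 11 of the 34 below the latter, and 9 of them (26.5%) share exon sequence with another gene, against 36.4% of genes at 1 CPM or more.

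The thresholds passed close to many genes. Just inside the ratio limit were Rin3 (1.26), Myof (1.26) and Grid1 (1.28), and just outside were C2 (24.7% higher in mean), Smoc1 (1.24) and Zfp592 (1.24). Just inside the limit of no overlap were Tmem252, 4930556M19Rik and Thbs4, and just outside were Prrg4 (0.997) and Fn1 (0.996), given as the lowest cKO over the highest control value. Just inside the level limit were Vip (1.16 CPM), Tmem190 (1.20) and Tex21 (1.27), and just outside were Sh2d6 (0.908 CPM), Myot (0.828) and 2610028E06Rik (0.818). In all, 77 genes at 1 CPM or more were higher without overlap by less than 25% in mean, and 389 reached the ratio with overlapping groups.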

How the data were processed

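The submitters' processing notes name STAR 2.5, HTSeq 0.61, DESeq2 2 and the build mm10; roles, strand setting and annotation are not given in the sources used here. The deposited table of read counts per gene, made by the authors, held 10 libraries. The authors also deposited FPKM values per gene and library, used here only to compare levels between genes and as an alternative for the rule. CPM was computed from the counts by column total, with no other scaling. Intervals and limits for 0 reads (3 counts) cover counting error only. Gene positions came from GENCODE M21 (GRCm38, the assembly of mm10), which held 54495 of 54532 IDs; the other 37 took 0.00763% of counts. Promoters came from RefSeq (GRCm38.p6).

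All genes were fitted with edgeR 4.0.16 (quasi-likelihood test, TMM scaling, filterByExpr with a minimum count of 10, adjusted p under 0.05) in R 4.3.3, with DESeq2 1.42.0 and limma 3.58.1 as alternatives. Only the edgeR fit was tested on simulated data, with its filter step switched off. Libraries come from different animals, 5 per group. The members and lists were chosen with earlier results of these data known. Lists on peptide neurons, granules, receptors and further mast cell genes, the relatives and the grouping by function were written after the members were seen. Values in every library are given for members within 1 Mb of Sox10 or Esrrg, members edgeR called, members on a fixed list, the 10 largest in ratio, the 10 largest in lowest cKO over highest control value, and the 5 highest in FPKM; other members are given by group. Among non-members, the rule names Sox10, Esrrg, 3 genes outside each threshold and called genes of the fixed lists; the other non-members named were chosen after their values were seen. Some genes the rule would name are not reported here.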

Additional observations from a re-analysis of the deposited data

Results flagged for a closer look

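In 8 of 68 groups of 5 member values, and in 14 of 82 groups with the context genes added, 1 library lay beyond Dixon's limit for a single stray value. For values not chosen beforehand chance gives about 5%, or 3.4 of the 68. The members were chosen by their values, and the context genes other than Sox10 after their values were seen. That share is therefore no measure for either count, and nothing is read from them. Control 5 was high for Tac1, at 7.66 CPM against 1.52 to 2.84 CPM in the other controls, and for Scn11a, at 5.06 against 1.69 to 2.61 CPM. Control 2 was low for 4 members: Micall1 at 32.4 CPM (others 62.3 to 64.2), Lmntd1 at 16.2 CPM (20.9 to 22.5), Mctp2 at 2.60 CPM (3.49 to 3.57) and Myof at 57.2 CPM (85.2 to 94.6). Otx1 was high in cKO 5, at 6.91 CPM (5.49 to 5.74), and Rin3 in control 3, at 25.3 CPM (21 to 21.9).

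Among genes outside the set, control 5 was also high for Scn10a at 9.31 CPM (0 to 0.194), Prdm12 at 4.38 CPM (0.145 to 0.479) and Pomc at 51.5 CPM (0.718 to 3.85). Library cKO 1 was high for Scn10a at 0.209 CPM (0.0250 to 0.0555), Fkbp5 at 204 CPM (36.3 to 85.1) and Tsc22d3 at 280.3 CPM (69.6 to 122).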

How the results depend on the processing

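The size of the set depended on the rule and the libraries. In place of 34 members there were 52 with TMM-scaled totals and 54 in FPKM (33 shared each), 22 at a minimum mean of 5 CPM, 13 at a ratio of 1.5 and 111 with no ratio limit. Leaving out 1 library gave 35 to 104 members, since fewer libraries overlap less often; 35 came without cKO 5, which alone removes Vip by taking its mean under 1 CPM, and the number was 104, 65 and 69 without control 1, 4 and 5 and 56, 82, 61 and 63 without cKO 1 to 4. In alternatives chosen after seeing the data, leaving out controls 2 and 5 gave 70 (26 shared), and leaving out cKO 1 and 5 gave 61 (24 shared). Genes called higher were 13 by edgeR and 50 by DESeq2, and 8 to 19 without 1 library; genes called lower were 98, 237 and 44 to 178. The 8 came without control 3 or cKO 5, and the 178 without control 2, while leaving out control 1, 3, 4 or 5 or cKO 2, 4 or 5 gave 44 to 60 lower. Members called were 6, 10 with no filter and 23 by DESeq2, and 2 to 10 without 1 library (2 without cKO 5, 3 without control 3, cKO 1 or cKO 2, 10 without control 2). Gm2824 and Micall1 were called in every fit without 1 library. Tac1 was called only in those without control 5, cKO 1 or cKO 3, and not with no filter. Vip, untested in the main fit, was called with no filter, by DESeq2 and without any single control or cKO 4. The labels do not state whether library numbers pair the samples. Correlations of same-numbered libraries ran from 0.0211 to 0.179, and controls 2, 3 and 5 correlated best with the cKO library of their own number. These values do not settle whether the samples are paired, so a fit with the number as a block was run as an alternative. The replicate block gave 18 genes higher, 83 lower and 7 members called. Vip rests on 10 reads in controls, and members near 1 CPM on few reads per library.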
